A study of Rattus norvegicus with 9 samples.

Results

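Gdf15 and Fgf21 encode hormones that cells under stress release into the blood. Growth differentiation factor 15 (Gdf15) is a distant member of the TGF-beta superfamily, and it acts on the hindbrain through the receptor Gfral with its co-receptor Ret, where it lowers food intake and causes nausea. Fibroblast growth factor 21 (Fgf21) is an endocrine fibroblast growth factor made mainly by the liver, and it signals through fibroblast growth factor receptors together with the co-receptor beta-Klotho (Klb). Both genes are known targets of ATF4, the transcription factor that is translated when cells block general protein synthesis, Gdf15 is also a known p53 target, and hepatic Fgf21 is also induced by PPARalpha during fasting.

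Both genes were followed in the liver of 9 male Wistar rats on one-colour Agilent arrays, with 1 array per rat. The 3 control rats received no radiation (0 Gy), the 3 TBI rats were given total-body irradiation of 6.5 Gy from a cobalt source, and the 3 HSC+TBI rats received Hong Shan Capsule (HSC, a Chinese preparation of medicinal herbs) by gavage for 3 days before the same irradiation. Livers were collected 24 h after exposure, and all RNA came from whole liver. The sample labels give the HSC dose as 30 mg/kg/day and the series design as 10 g/kg/day, and no rat on the arrays received HSC without irradiation, so a difference between HSC+TBI and control rats covers both treatments together.

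Gdf15 (gene ID 29455, rat chromosome 16) and Fgf21 (gene ID 170580, rat chromosome 1) are 2 of the 13438 genes that could be named on the array. Probes were taken by matching their RefSeq accession to the gene, which gave 1 probe for Gdf15 (A_42_P608780) and 1 for Fgf21 (A_42_P618217). Both probes were above background on all 9 arrays, so no value of either gene is a bound. The pair was selected on the signals of these same 9 rats and their differences between the groups, so its own values are given as a description without a test.

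The promoter windows of both genes are shown because stress and fasting factors act there, and the 2 genes differ in the short motifs beside their starts. Each window holds the 250 bases before an annotated start in RefSeq (assembly GRCr8), and capitals mark every match to a searched motif. RefSeq gives Gdf15 a pair of starts, and the table used here does not say which of them belongs to the transcript on the array.
Gdf15, first start, chr16:18838186-18838435, plus strand: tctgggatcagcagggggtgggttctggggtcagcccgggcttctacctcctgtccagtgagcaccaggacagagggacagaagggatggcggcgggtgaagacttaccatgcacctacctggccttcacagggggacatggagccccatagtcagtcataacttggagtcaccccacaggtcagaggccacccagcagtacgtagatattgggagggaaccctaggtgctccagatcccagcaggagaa
Gdf15, second start, chr16:18839015-18839264, plus strand: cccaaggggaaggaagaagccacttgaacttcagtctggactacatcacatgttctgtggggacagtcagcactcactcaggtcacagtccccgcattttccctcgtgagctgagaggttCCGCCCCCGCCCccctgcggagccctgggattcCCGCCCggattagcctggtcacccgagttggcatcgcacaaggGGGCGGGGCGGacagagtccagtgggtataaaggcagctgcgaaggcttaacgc
Fgf21, chr1:105221377-105221626, minus strand: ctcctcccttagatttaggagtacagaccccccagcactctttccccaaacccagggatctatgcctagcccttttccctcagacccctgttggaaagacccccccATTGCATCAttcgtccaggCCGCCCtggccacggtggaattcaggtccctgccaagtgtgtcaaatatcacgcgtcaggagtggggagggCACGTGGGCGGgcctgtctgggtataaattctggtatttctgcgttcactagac

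The motifs were searched on both strands: the p53 decamer and the PPAR element by name, the C/EBP-ATF response element core (TGATGNAAN), the E-box CACGTG, the cyclic AMP response element core TGACGTCA and the GC box GGGCGG. The Fgf21 window held a C/EBP-ATF core, read on the opposite strand as ATTGCATCA at 144 to 136 bases before the start. This core was present in 3.38% of all 33469 promoter windows of the same length. The Fgf21 window also held an E-box at 54 to 49 bases before the start, a motif found in 5.59% of windows, and 2 GC boxes, the nearer of which shares 1 base with the E-box.

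The second Gdf15 window held 5 GC boxes and no other searched motif, and the last 2 of these overlap by 1 base. GC boxes were present in 30.5% of all windows. The first Gdf15 window held no match. No p53 decamer (6.64% of all windows), PPAR element (0.0508%) or cyclic AMP response element core (1.59%) was found in the 3 windows, which says only that these letters are not within 250 bases of the annotated starts. The GC content was 59.6% and 61.2% in the Gdf15 windows and 56.4% in the Fgf21 window, beside a median of 51.2% over all windows.

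Gdf15 was far higher in every irradiated rat than in any control rat. The normalized log2 signal was 5.70, 6.60 and 6.19 in the control rats. It was 10.15, 10.51 and 10.62 in the TBI rats and 10.07, 9.84 and 10.73 in the HSC+TBI rats. The lowest TBI rat was 3.55 above the highest control rat on the log2 scale, and the lowest HSC+TBI rat was 3.24 above it, whereas the TBI and HSC+TBI rats overlapped.

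The group means of Gdf15 were 6.17 ± 0.45 for the controls, 10.43 ± 0.25 for TBI and 10.21 ± 0.46 for HSC+TBI (log2 signal, SD, n = 3 each). The difference was 4.26 (19.2-fold) between TBI and control rats and 4.05 (16.5-fold) between HSC+TBI and control rats. HSC+TBI rats were 0.22 below TBI rats on average (log2 difference of -0.22, 0.861-fold), which is less than the SD within either group, and 3 of the 9 pairs of rats ran the other way. Of 25369 tested probes, 7 had a difference between TBI and control at least as high as that of Gdf15 (0.0276%), and 3 had one between HSC+TBI and control (0.0118%).

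The separation was also visible before normalization. The median spot intensity of the Gdf15 probe was 103, 175 and 137 in the control rats, over a local background of 37 to 39. It was 1145.5, 1793 and 3261.5 in the TBI rats and 1227, 1059.5 and 1790 in the HSC+TBI rats, with a background of 37.5 to 42.5. Control spots were thus only a few times brighter than their background, and the difference was smaller under a setting that also adds a constant to all signals. Background correction with the normexp model and an added offset of 50 gave 7.7-fold for TBI and 6.77-fold for HSC+TBI over control, with gaps of 2.48 and 2.23 between the groups on the log2 scale. An added constant itself shrinks the ratio of bright to dim signals, and the offset and the correction were not separated.

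Relative to the mean of the control rats, Gdf15 was 15.8-, 20.4- and 22-fold in the TBI rats and 15-, 12.8- and 23.6-fold in the HSC+TBI rats. The highest Gdf15 signal of all 9 rats was that of HSC+TBI rat 3 and the lowest of the irradiated rats was that of HSC+TBI rat 2. The spread between the highest and lowest rat was 1.87-fold in control, 1.39-fold in TBI and 1.85-fold in HSC+TBI rats. In order of group means Gdf15 was highest in TBI, then in HSC+TBI, then in control rats, and the first 2 of these neighbours did not differ beyond their spread.

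**Figure D1:**
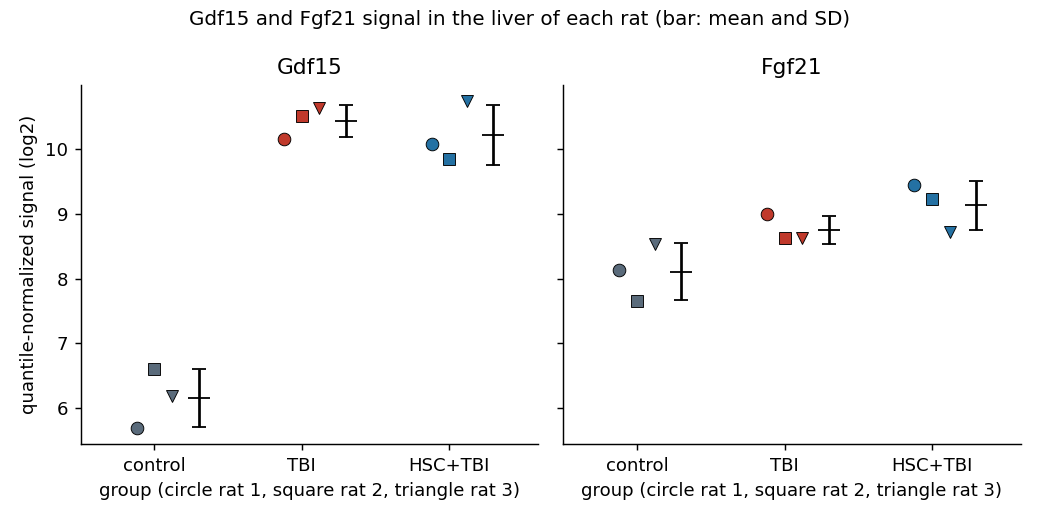
Normalized log2 signal (y axis) of Gdf15 and Fgf21 in each rat by group (x axis), with the symbol giving the rat number and the bars the mean and SD of 3 rats. The Gdf15 signals of all 6 irradiated rats lie at 9.84 or above and those of the control rats at 6.60 or below, while the Fgf21 groups lie close together and the highest control rat (8.53) is 0.09 below the lowest TBI rat.

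Fgf21 was higher in the irradiated groups by a much smaller amount. The normalized log2 signal was 8.13, 7.65 and 8.53 in the control rats. It was 9.0, 8.63 and 8.62 in the TBI rats and 9.44, 9.23 and 8.71 in the HSC+TBI rats. No irradiated rat fell below a control rat, but the gaps were narrow, at 0.09 on the log2 scale between the lowest TBI and the highest control rat and 0.18 between the lowest HSC+TBI and the highest control rat. TBI and HSC+TBI rats overlapped.

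The group means of Fgf21 were 8.10 ± 0.44 for the controls, 8.75 ± 0.22 for TBI and 9.13 ± 0.38 for HSC+TBI (log2 signal, SD, n = 3 each). The differences were 0.65 (1.57-fold) between TBI and control, 1.03 (2.04-fold) between HSC+TBI and control, and 0.38 (1.3-fold) between HSC+TBI and TBI. HSC+TBI rats were higher than TBI rats in 8 of 9 pairs. In order of group means Fgf21 was highest in HSC+TBI, then in TBI, then in control rats, with HSC+TBI above TBI by 1.2 times the pooled SD of both.

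A difference between TBI and control at least as high as that of Fgf21 was seen in 9.26% of tested probes, and the corresponding shares were 1.69% for HSC+TBI against control and 11.7% for HSC+TBI against TBI. Both genes had their groups apart in both comparisons with control. Among probes measured on all arrays compared, 13.3% had every TBI rat above every control rat and 18% had every HSC+TBI rat above every control rat. The 2 genes differed in the size of the step relative to the spread between rats. The Gdf15 difference was 11.7 times the pooled SD for TBI and 8.9 times for HSC+TBI, and the Fgf21 difference 1.9 and 2.5 times.

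**Figure D2:**
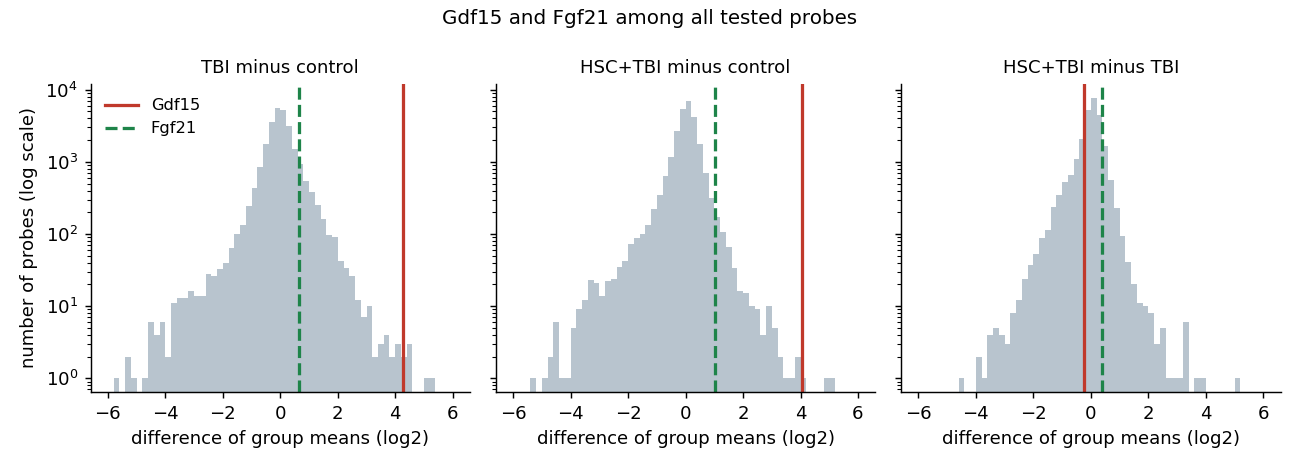
Histograms of the log2 difference of group means (x axis) over the 25369 tested probes, with the number of probes on a log scale (y axis), in the 3 comparisons. The solid line marks Gdf15, at 4.26 and 4.05 in the comparisons with control and at -0.22 in HSC+TBI minus TBI, and the dashed line marks Fgf21, at 0.65, 1.03 and 0.38.

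The rats ranked differently by the 2 hormones. Control rat 2, which had the highest Gdf15 signal of its group (6.60), had the lowest Fgf21 signal (7.65), and HSC+TBI rat 3 likewise had the highest Gdf15 (10.73) and lowest Fgf21 (8.71). TBI rat 3 had the highest Gdf15 of its group (10.62), and its Fgf21 signal of 8.62 was lower than that of TBI rat 2 by only 0.01. Before normalization TBI rat 3 had the brightest Fgf21 spots of the TBI rats, with a median intensity of 763 against 537.5 and 509. With 3 rats per group this is a description of single animals.

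No slide held arrays of more than 1 group: all control arrays lay on 1 slide, all TBI arrays on another, and the HSC+TBI arrays on another 2, so slide and group cannot be told apart in any comparison. The share of probes above background was 56.6% to 59.3% in control, 63.6% to 69.5% in TBI and 58.7% to 60.5% in HSC+TBI rats. All 6 hepatocyte markers were above background on all 9 arrays, and their summed normalized signal ranged from 572000 to 619000 in control, 450000 to 582000 in TBI and 531000 to 610000 in HSC+TBI rats. The summed signal of 8 macrophage markers was 51000 to 71900, 50500 to 91000 and 36200 to 40000 in the same order, and that of the 8 measured lymphocyte markers 1070 to 1990, 729 to 1450 and 566 to 698. Of the T-cell markers, Cd3e was above background on no array, whereas Cd3d and Cd4 were above it on all 9. Cd8a was above it on 3 control, 3 TBI and 2 HSC+TBI arrays. Most of the macrophage sum was Clec4f (mean log2 signal of 15.47 in control). Between HSC+TBI and TBI rats Clec4f differed by -0.86. The other macrophage markers differed by -1.28 (Csf1r) to 0.12 (Cd14), with Cd163 at -0.14. Limma called none of the 8 in that comparison, where 0.796% of all tested probes were called. The summed signal of the 4 measured sinusoidal endothelial markers was 12400 to 15400 in control, 16500 to 20300 in TBI and 15300 to 17000 in HSC+TBI rats. TBI rats thus lay above the controls in this sum without overlap. Kdr made up most of it (mean log2 signal in control of 13.56, against 11.05 for Lyve1, 5.13 for Pecam1 and 5.05 for Tek). The log2 differences with TBI were 0.33 for Kdr, 0.53 for Lyve1, 0.12 for Pecam1 and -0.23 for Tek, and only Lyve1 did not overlap. Over all probes, 13.3% had every TBI rat above every control rat, so this is not read as a result about the cell type. With TBI limma called 1 of the 6 hepatocyte markers, Tat, as higher (2.89-fold, adjusted p = 0.0287). Of all tested probes 7.25% were called with TBI. The other hepatocyte markers were not called and differed by -0.53 (Ttr) to 0.52 (Cps1) on the log2 scale. Limma called 1 of the 6 stellate cell markers, Lrat, as 1.54-fold lower (adjusted p = 0.0237). The other stellate cell markers were not called and differed by -0.28 (Col3a1) to 0.40 (Reln). A single call among 6 genes is not read as a result about either cell type. None of the 3 tested neutrophil and 2 tested cholangiocyte markers was called in any comparison. The B-cell gene Cd79b was above background in all 3 control rats and in 0 TBI and 0 HSC+TBI rats. It passed the filter only through the control rats, so its test result is not used. As a description, Cd79b was at least 4.97-fold lower in TBI and at least 2.9-fold lower in HSC+TBI rats. The part of cell composition in the Gdf15 and Fgf21 values was not tested, and in bulk liver RNA fewer cells of a type and less RNA per cell cannot be told apart.

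The genes around both hormones were described in 10 lists of 162 genes, of which 130 had a probe and 97 passed the filter for testing. All lists were chosen with earlier results of these data known. A list gene is given by its brightest tested probe, whereas the shares over all tested probes include dim ones. Here and below, a list's share beside that of all probes is therefore a description and not a test of the list. A probe was called at a limma adjusted p under 0.05 (Benjamini-Hochberg over all tested probes) with a fold change of at least 1.5. Between TBI and control rats 26 of the 97 genes were called (26.8%), where 7.25% of all tested probes were, with 23 higher (3.54% of all probes) and 3 lower (3.71%). Between HSC+TBI and control rats 17 were called (17.5%, against 3.23% of all probes), 15 higher (1.19%) and 2 lower (2.05%). Between HSC+TBI and TBI rats limma called none of the 97, where it called 0.796% of all probes (0.233% higher and 0.564% lower), and 13 of the genes had an unadjusted p under 0.05. The methods' t-test, which takes each gene alone, called 4 at an unadjusted p in this comparison.

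The median log2 difference of the 97 genes was 0.23, 0.16 and 0.01 in these comparisons, beside -0.006, 0.048 and 0.058 over all tested probes. Both comparisons with control share the same 3 control rats. Without control rat 1 or control rat 3 the 26 calls became 16, and the 17 calls became 8 without control rat 3, 8 without HSC+TBI rat 1 and 10 without HSC+TBI rat 2. Without TBI rat 1, 3 genes were called between HSC+TBI and TBI rats.

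**Figure D3:**
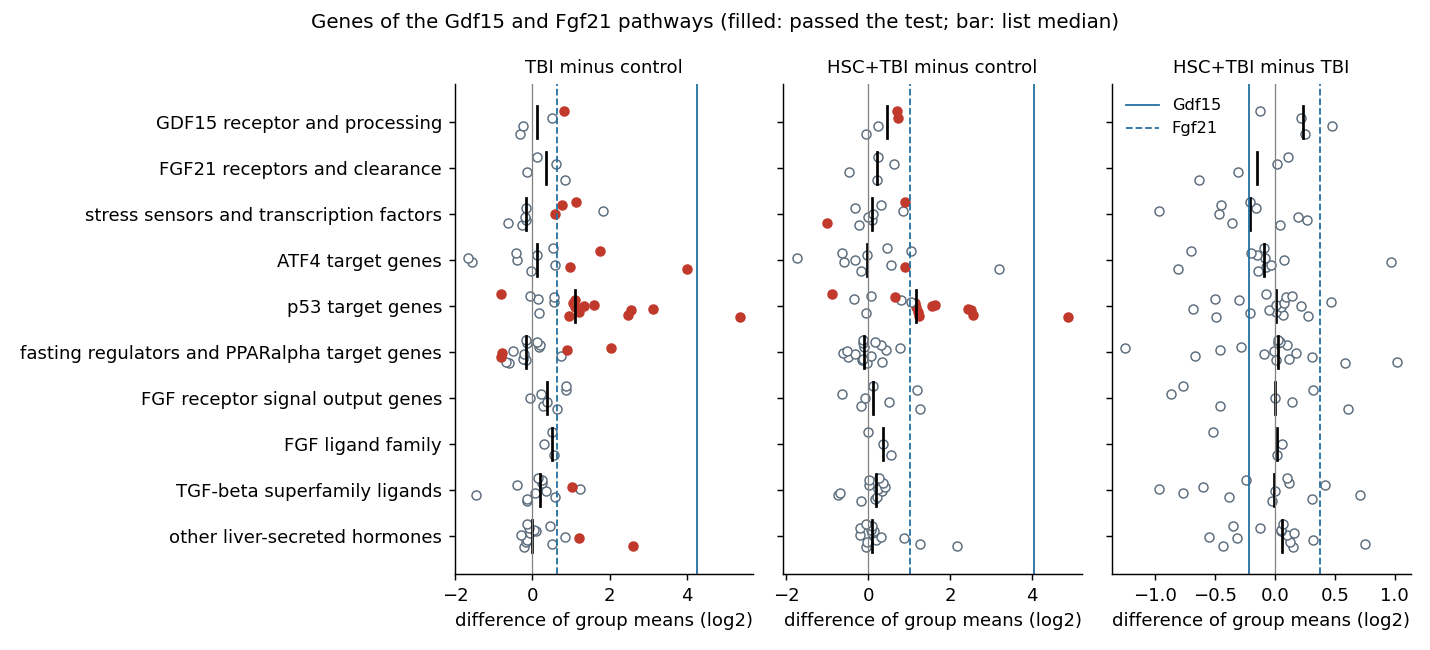
Log2 difference of group means (x axis) of each tested gene in 10 lists (rows) in the 3 comparisons, filled where the gene passed limma's test at 1.5-fold, with a bar at each list's median and vertical lines for Gdf15 (solid) and Fgf21 (dashed). The p53 target genes hold 12 of the 26 filled points of TBI minus control and 12 of the 17 of HSC+TBI minus control, and HSC+TBI minus TBI has none.

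Of the proteins that process or receive Gdf15, the 4 tested genes all encode proteases, and limma called 1 of them with TBI and 2 with HSC+TBI. These are 25% and 50% of only 4 genes, where 7.25% and 3.23% of all tested probes were called. Mmp14, a membrane matrix metalloproteinase that can cleave Gfral, was 12.26, 12.21 and 12.04 in control, 13.07, 12.96 and 12.96 in TBI and 12.95, 12.96 and 12.72 in HSC+TBI rats (log2 signal). All irradiated rats were above all control rats, and Mmp14 rose by 0.83 ± 0.12 (log2 difference ± SE, limma adjusted p = 0.00582) with TBI and 0.71 ± 0.12 (adjusted p = 0.017) with HSC+TBI. The latter call was lost without control rat 2, control rat 3, HSC+TBI rat 1 or HSC+TBI rat 2, with values of 0.64 to 0.79 over all rats left out.

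Proprotein convertases release mature hormones from their precursors. Pcsk7 was 6.84 to 7.01 in control, 7.38 to 7.56 in TBI and 7.49 to 7.87 in HSC+TBI rats. It rose with HSC+TBI by 0.72 ± 0.13 (limma adjusted p = 0.024) and was 0.50 above control with TBI (adjusted p = 0.0535), and without any 1 control rat, HSC+TBI rat 1 or HSC+TBI rat 2 the call was lost (0.62 to 0.81). Furin, which cleaves many growth factor precursors, differed from control by -0.31 with TBI and -0.06 with HSC+TBI and passed the test in neither. Pcsk6 was 10.30 to 10.34 in TBI and 10.76 to 10.83 in HSC+TBI rats without overlap, and that difference of 0.48 did not pass the test (adjusted p = 0.0772). Ret had 3 probes, none of which was above background on all arrays of a group, and Gfral and Pcsk5 had no matched probe.

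Limma called none of the 4 measured receptors of Fgf21 in any comparison, with 1, 1 and 0 at an unadjusted p under 0.05 in the 3 comparisons and none called by the methods' t-test at an unadjusted p. Of all tested probes 7.25%, 3.23% and 0.796% were called, so 4 genes without a call are near these shares. Fgfr1, the main receptor for Fgf21 in fat, differed from control by 0.85 with TBI (adjusted p = 0.158) and 0.21 with HSC+TBI, and TBI rat 2 (7.36) stood above the other TBI rats (6.09 and 5.90). Fgfr4, the main fibroblast growth factor receptor of hepatocytes, differed by 0.13 and 0.24. Fgfr2 differed by -0.15 and -0.46 and Fgfr3 by 0.60 and 0.62. Klotho (Kl) and the protease Fap, which inactivates circulating Fgf21, were above background on no array, and Klb had no matched probe. A second Fgfr2 probe had adjusted p of 0.0472 and 0.0385 against control at differences of -0.47 and -0.58, below the 1.5-fold minimum.

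The genes whose products report fibroblast growth factor receptor signalling, such as Spry2, Spry4, Etv5 and Dusp4, were likewise not called. Of 7 tested, limma called none in the 3 comparisons, with 1, 3 and 1 at an unadjusted p under 0.05 and 0, 0 and 1 called by the methods' t-test at an unadjusted p. No call among 7 genes is near the shares of all tested probes called (7.25%, 3.23% and 0.796%). The list medians were 0.38, 0.11 and 0 on the log2 scale. Dusp4, a phosphatase that limits the kinase Erk, differed from control by 0.65 with TBI and 1.26 with HSC+TBI, but 1 control array did not measure it above background. Etv5 differed by 0.23 and -0.64, and by -0.87 between HSC+TBI and TBI (limma adjusted p = 0.102). Its second probe gave -0.09, -0.22 and -0.13. Spry2 differed from control by 0.28 and -0.18. Spry4 differed by 0.38 and 0.51 at its brightest probe and by -0.36 and -0.46 at its second.

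Of 9 measured stress-sensing kinases and transcription factors, 3 rose with TBI, all of them transcription factors. They were 33.3% of the list, where 7.25% of all tested probes were called. Nfe2l2, which encodes the oxidative stress factor Nrf2, was 11.40, 11.18 and 11.23 in control, 12.56, 12.15 and 12.47 in TBI and 12.26, 12.13 and 12.16 in HSC+TBI rats. It rose by 1.12 ± 0.14 (limma adjusted p = 0.00309) and 0.91 ± 0.14 (adjusted p = 0.0104), and the second call was lost without control rat 3 or HSC+TBI rat 1 (0.87 to 0.98).

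Atf4 itself was 12.74, 12.70 and 12.69 in control, 13.41, 13.33 and 13.17 in TBI and 12.82, 12.94 and 12.76 in HSC+TBI rats. The 3 groups did not overlap, with HSC+TBI rats between the others. Atf4 rose by 0.59 ± 0.11 with TBI (limma adjusted p = 0.0165), just above the 1.5-fold minimum, and 4 of the 9 fits that left out a rat lost the call (control rats 2 and 3, TBI rats 1 and 2), with values of 0.54 to 0.66. The difference was 0.13 with HSC+TBI against control (adjusted p = 0.581) and -0.47 against TBI (adjusted p = 0.104).

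Cebpb, a partner of Atf4 at its target sites, rose by 0.76 ± 0.18 with TBI (limma adjusted p = 0.0356) and was 0.31 above control with HSC+TBI (adjusted p = 0.376). The TBI call was lost in 8 of 9 fits with a rat left out, all except that without TBI rat 2 (0.61 to 0.86). Atf3, an immediate stress factor, ranged from 7.90 to 10.67 in control, 9.47 to 12.17 in TBI and 9.54 to 10.67 in HSC+TBI rats. Its difference of 1.82 with TBI did not pass the test (adjusted p = 0.205), and its groups overlapped. Ddit3, which encodes the endoplasmic reticulum stress factor Chop, differed by -0.16 and -0.31 and was not called. Eif2ak2, the kinase that senses double-stranded RNA, fell by 1.01 on the log2 scale with HSC+TBI (adjusted p = 0.0445). This call was lost without any 1 rat other than TBI rats 2 and 3 (-1.17 to -0.82).

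Among 11 measured ATF4 target genes, 3 rose with TBI and 1 with HSC+TBI. The shares called were 27.3% and 9.09%, against 7.25% and 3.23% of all tested probes. Chac1, which degrades glutathione, was 6.0, 8.66 and 6.79 in control, 10.48, 11.10 and 11.87 in TBI and 11.48, 9.01 and 10.51 in HSC+TBI rats. Irradiated rats were all above control rats, the closest being HSC+TBI rat 2 (9.01) and control rat 2 (8.66). Chac1 rose by 4.0 ± 0.78 with TBI (16-fold, limma adjusted p = 0.0194) and was 3.19 above control with HSC+TBI (adjusted p = 0.068). Leaving out control rat 1, control rat 3 or TBI rat 2 ended the TBI call (3.43 to 4.76).

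Ppp1r15a, which restarts protein synthesis after stress, was 6.65 to 7.92 in control, 8.71 to 9.27 in TBI and 8.09 to 8.71 in HSC+TBI rats. It rose by 1.75 ± 0.32 with TBI (limma adjusted p = 0.015; not called without control rat 3, range 1.42 to 2.05) and was 1.05 above control with HSC+TBI (adjusted p = 0.117). Sesn2, an antioxidant and nutrient sensor that is also a p53 target, rose by 0.98 ± 0.19 and 0.91 ± 0.19 (adjusted p = 0.0168 and 0.0367). The TBI call was lost without control rat 1 or 2 (0.83 to 1.10) and the HSC+TBI call without any 1 control rat, HSC+TBI rat 1 or HSC+TBI rat 2 (0.77 to 1.04). Asparagine synthetase (Asns), a widely used readout of ATF4, was 7.64 to 8.51 in control, 7.86 to 8.34 in TBI and 7.42 to 8.58 in HSC+TBI rats, and the differences of -0.04 and -0.18 did not pass. The serine synthesis gene Phgdh differed by -1.56 with TBI (adjusted p = 0.0941). Mthfd2, a mitochondrial folate enzyme, differed by -1.66 and -1.74 at its brightest probe (adjusted p = 0.158 and 0.191), where control rat 1 (7.16) stood above control rats 2 and 3 (4.46 and 4.51). Only 1 HSC+TBI array measured this Mthfd2 probe above background, so the -1.74 rests on dim signals. Its other probes disagreed, with 1 called lower with TBI (-1.08, adjusted p = 0.043) and the other at -0.16 (adjusted p = 0.7). The median of the list was 0.12 with TBI and -0.03 with HSC+TBI.

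Most p53 target genes that could be measured rose in both irradiated groups. Of 17, 11 rose and 1 fell with TBI, and 11 rose and 1 fell with HSC+TBI. The share called was 70.6% in each, against 7.25% and 3.23% of all tested probes. The gene that fell was Xpc in both. The list median was 1.10 with TBI and 1.16 with HSC+TBI on the log2 scale, and 0.01 between the irradiated groups. Cdkn1a, the cell cycle inhibitor p21, was 7.98, 8.22 and 8.81 in control, 13.44, 13.64 and 14.04 in TBI and 13.56, 13.09 and 13.00 in HSC+TBI rats. It rose by 5.37 ± 0.25 (41.3-fold, limma adjusted p = 3.48e-05) and 4.88 ± 0.25 (29.4-fold, adjusted p = 8.93e-05).

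Phlda3, an inhibitor of Akt signalling, rose by 2.55 ± 0.21 and 2.50 ± 0.21 and cyclin G1 (Ccng1) by 2.48 ± 0.18 and 2.55 ± 0.18. The anti-proliferative gene Btg2 rose by 3.13 and 2.44, the nuclease gene Aen by 1.60 and 1.62, the pro-apoptotic gene Bax by 1.20 and 1.21, and Mdm2, the ligase that degrades p53, by 0.96 and 1.24. Aen, Bax, Ccng1, Cdkn1a, Mdm2, Phlda3, Tp53inp1 and Zmat3 were called in both comparisons whichever rat was left out, and Btg2 in TBI, its HSC+TBI call being lost without control rat 3 or HSC+TBI rat 1 (2.13 to 2.82). The repair gene Xpc fell, by 0.81 with TBI and 0.88 with HSC+TBI, and both calls depended on single rats, 6 of 9 in each case. Those rats were the 3 control rats and TBI rat 2 in both comparisons, TBI rat 3 and HSC+TBI rat 1 for TBI, and HSC+TBI rats 1 and 2 for HSC+TBI (-0.89 to -0.71 and -1.04 to -0.73). The death receptor gene Fas rose by 1.11 ± 0.20 and 1.16 ± 0.20, and its calls were lost without control rat 3 in both comparisons (0.99 to 1.28 with TBI) and with HSC+TBI also without HSC+TBI rat 1 or 2 (1.04 to 1.31). The kinase gene Plk3 rose with TBI at its brightest probe, by 1.10 ± 0.25, with 0.80 for HSC+TBI (adjusted p = 0.128), whereas its second probe was called in both (1.19 and 1.15). The Plk3 call was lost without any 1 control rat, TBI rat 2 or HSC+TBI rat 2 (0.91 to 1.22). Ei24 rose with HSC+TBI by 0.66 ± 0.12, and its difference of 0.57 with TBI was below the 1.5-fold minimum. Leaving out control rat 2, control rat 3 or any 1 HSC+TBI rat ended the Ei24 call (0.60 to 0.72). Bbc3, Gadd45a and Rrm2b did not pass the test in either comparison with control.

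Regulators and target genes of the fasting response, which include the known drivers of hepatic Fgf21, moved in both directions. Of 16 measured, 2 rose and 2 fell with TBI and limma called none with HSC+TBI, where 4 had an unadjusted p under 0.05 and the methods' t-test called 1 at an unadjusted p. The share called was 25% with TBI and 0% with HSC+TBI, against 7.25% and 3.23% of all tested probes. Pdk4, which spares glucose by inhibiting pyruvate dehydrogenase, was 6.28, 8.44 and 7.76 in control, 9.04, 9.85 and 9.70 in TBI and 8.18, 8.01 and 8.64 in HSC+TBI rats. It rose by 2.04 ± 0.49 with TBI (limma adjusted p = 0.0414), and did not pass without control rat 3, TBI rat 2, TBI rat 3 or any 1 HSC+TBI rat (1.43 to 2.51), and HSC+TBI rats overlapped the control rats. The PPARalpha target Cyp4a1, a fatty acid omega-hydroxylase, rose by 0.89 (adjusted p = 0.0286).

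Cpt1a, which carries fatty acids into mitochondria, fell by 0.79 with TBI (limma adjusted p = 0.0249), and Nr1d1, a repressor of the circadian clock, fell by 0.80 (adjusted p = 0.0183). Both calls were lost without control rat 1, the Cpt1a call also without control rat 2 or TBI rat 2 (-0.92 to -0.70) and the Nr1d1 call without control rat 3 (-0.92 to -0.67). The Cyp4a1 call was lost without control rat 1, control rat 3, TBI rat 2, TBI rat 3 or HSC+TBI rat 1 (0.76 to 1.11). Ppara itself was 9.06 to 9.41 in control, 8.53 to 8.90 in TBI and 9.05 to 9.50 in HSC+TBI rats, with TBI rats below both other groups, and the differences of -0.61 from control (adjusted p = 0.062) and 0.59 between HSC+TBI and TBI (adjusted p = 0.153) did not pass the test. The list median was -0.16 with TBI and -0.11 with HSC+TBI, over 6 genes above and 10 below control in each.

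Other secreted factors were compared by family. Of the other fibroblast growth factors 20 had a probe and 3 were tested, Fgf1, Fgf22 and Fgf23, and limma called none in any comparison, with none at an unadjusted p under 0.05 and none called by the methods' t-test. Fgf1, which acts within tissues, differed by 0.55 with TBI and 0.56 with HSC+TBI. Of 12 measured ligands of the TGF-beta superfamily, to which Gdf15 belongs, 1 rose with TBI and limma called none with HSC+TBI, where 1 had an unadjusted p under 0.05 and the methods' t-test called 0. The 1 of 12 is 8.33%, near the 7.25% of all tested probes called with TBI, and 3.23% of all probes were called with HSC+TBI. The 3 fibroblast growth factors without a call are also near these shares. Inhba, the activin A subunit, was 9.24 to 10.13 in control, 10.47 to 10.94 in TBI and 9.96 to 10.26 in HSC+TBI rats, and rose by 1.02 ± 0.23 with TBI (limma adjusted p = 0.0306). Without control rat 1, control rat 2, TBI rat 1, TBI rat 3 or HSC+TBI rat 1 the Inhba call was lost (0.79 to 1.23). Tgfb3 differed by 1.22 (adjusted p = 0.0605) and Gdf10 by -1.45 (adjusted p = 0.0502) with TBI.

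Of 14 other proteins secreted by the liver 2 rose with TBI, and limma called none with HSC+TBI, where 2 had an unadjusted p under 0.05 and the methods' t-test called 1. The share called was 14.3% with TBI and 0% with HSC+TBI, against 7.25% and 3.23% of all tested probes. Igfbp1, the insulin-like growth factor binding protein that rises in fasting and stress, was 10.65, 12.46 and 10.89 in control, 13.39, 14.07 and 14.33 in TBI and 13.79, 12.78 and 13.91 in HSC+TBI rats. It rose by 2.6 ± 0.51 with TBI (6.04-fold, limma adjusted p = 0.0191) and was 2.16 above control with HSC+TBI (adjusted p = 0.06), and control rat 2 stood above the other control rats. Leaving out control rat 1, control rat 3 or TBI rat 2 ended the TBI call (2.25 to 3.16). Hepcidin (Hamp), the hormone that blocks iron release, rose by 1.20 ± 0.31 with TBI (adjusted p = 0.0489), and only the fit without control rat 3 kept that call (0.82 to 1.49 over all fits). Igf1 differed by -0.21 and -0.06 and was not called.

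Several of these calls also ended under another setting. With normexp background correction the TBI calls of Atf4 (0.58), Cebpb (0.56), Nr1d1 (-0.58), Plk3 (0.52), Sesn2 (0.54) and Xpc (-0.54) were lost, as were the HSC+TBI calls of Ei24 (0.47), Pcsk7 (0.43), Sesn2 (0.46) and Xpc (-0.55). With no filter on dim probes the TBI calls of Cebpb, Hamp, Inhba, Pdk4 and Plk3 and the HSC+TBI calls of Eif2ak2, Sesn2 and Xpc were lost. With the replicate number as a block the TBI calls of Cebpb, Hamp, Plk3 and Xpc and the HSC+TBI calls of Eif2ak2, Pcsk7, Sesn2 and Xpc were lost. The methods' t-test at an unadjusted p did not keep the TBI calls of Hamp and Pdk4. After adjustment it called none of the 97 genes, so every call named above was lost under that setting.

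The genes nearest to each hormone in pattern were found by the root mean square difference of their log2 signals over the 9 arrays, each taken relative to its own control mean, among 12674 probes of 9880 genes. Nearest to Gdf15 were Nrcam (0.55), Cdkn1a by its second probe (0.79), Chac1 (0.90), Cgref1 (1.08) and Noct (1.09), where the median of all candidates was 3.41. A probe without change is also far from Gdf15 by this measure, and the closeness follows from the choice by pattern on these same arrays. Single rats departed: Noct was 1.66 above control in HSC+TBI rat 3 (Gdf15 4.56), and Chac1 1.87 in HSC+TBI rat 2 (Gdf15 3.68). Nrcam, a neuronal cell adhesion molecule, was not well above background in any control rat, and it was at least 3.48-fold higher in TBI and at least 4.42-fold higher in HSC+TBI rats. The second Cdkn1a probe and Cgref1 were also not well above background in any control rat, so their likeness to Gdf15 rests on the irradiated rats and on dim control signals.

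Nearest to Fgf21 were Megf9 (0.22), Gar1 (0.23), Limk2 (0.27), Fam98a (0.27) and Trmt61a (0.28), with a median of 0.79 over all candidates. Their differences from control were 0.49 to 0.83 with TBI and 0.80 to 0.99 with HSC+TBI, beside the 0.65 and 1.03 of Fgf21. That closeness follows from the choice of the genes by pattern on these same arrays. None of the 5 belongs to the lists above. Megf9 encodes a membrane protein with epidermal growth factor-like repeats, Gar1 a protein of small nucleolar ribonucleoproteins, and Limk2 a kinase of the actin cytoskeleton.

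**Figure D4:**
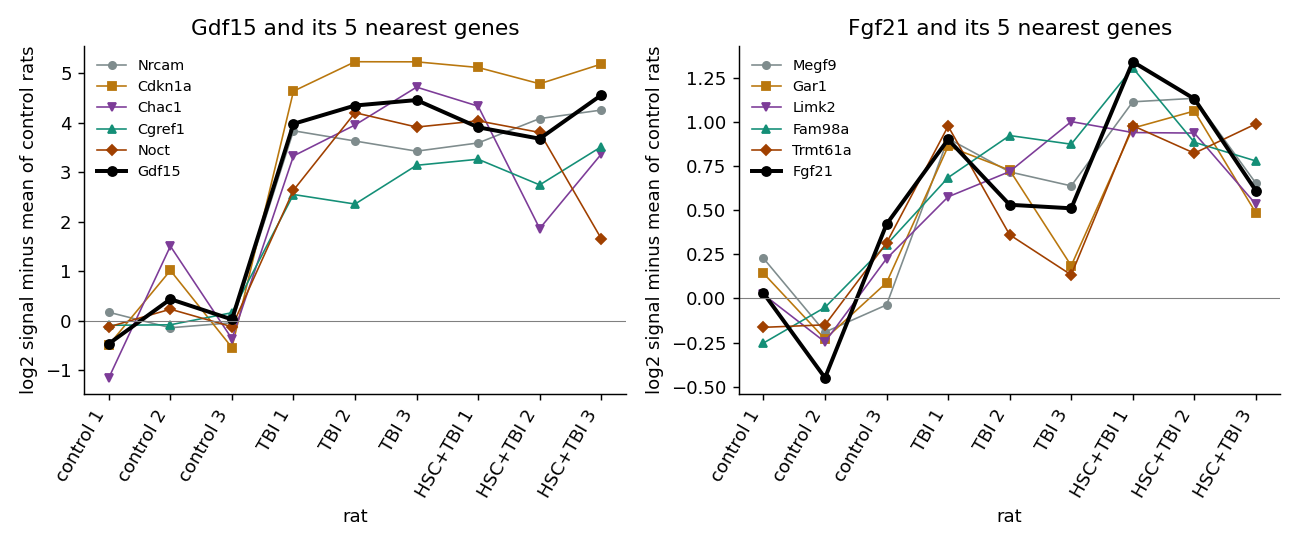
Log2 signal minus the mean of the control rats (y axis) in each of the 9 rats (x axis) for Gdf15, Fgf21 (thick black lines) and the 5 genes nearest to each in pattern. Gdf15, Chac1 and Noct, measured in every rat, lie 4.26, 4.0 and 3.59 above control with TBI on average, the control points of Nrcam, Cdkn1a and Cgref1 are not well above background, and the neighbours of Fgf21 lie 0.49 to 0.83 above control. Lines join points of a gene and do not stand for an order among rats.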

How the data were processed

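Expression in the liver of 9 rats was measured on Agilent arrays in 1 colour. The authors extracted spot intensity values with Feature Extraction (10.7 in the submitters' processing notes, 10.7.3.1 in the file headers), and per the file headers a processed signal and background flags were given for each spot. The authors then normalized by quantiles and deposited a log2 value per probe and array. Here the processed signals were used, and the authors' values served as an alternative (median difference of 0.029 to 0.032 per array).

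Outlier and control spots were removed, signals were floored at 1, put on the log2 scale, quantile-normalized (R 4.3.3, limma 3.58.1) and averaged per probe (41012 probes). Probes flagged above background in more than 0.5 of their spots on every array of any group (25369) were fitted with lmFit and eBayes on 3 group means, and the calls used adjusted p under 0.05 and 1.5-fold. The script was tested on simulated data. For a gene not above background in a group, the fold is a bound against the lowest signal above background on each array. Genes were named by RefSeq accession (GRCr8), and a list gene is given by its brightest tested probe, with the rule that called members, receptors and proteases, up to 4 members of a list with the largest differences, and the 5 nearest patterns could be named. A few further members, such as Asns, were named after their values were seen. Gdf15, Fgf21 and all lists were chosen with earlier results of these data known. Results for some single genes of the lists are not reported here. Arrays of 3 rats per group limit the precision, and an exact two-sided permutation test could not go below 0.1. Alternatives covered scaling, background correction, filters, probe choice, blocks, the methods' t-test (unequal variances) and leaving out each rat.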

Additional observations from a re-analysis of the deposited data

How the results depend on the processing

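The differences of Gdf15 and Fgf21 kept their direction under every scaling and with each rat left out. Normexp background correction lowered the Gdf15 differences from control to 2.94 for TBI and 2.76 for HSC+TBI (log2), with Gdf15 control spots close to background. With single rats left out, Gdf15 ranged from 4.03 to 4.48, 3.79 to 4.27 and -0.47 to -0.03 (TBI minus control, HSC+TBI minus control and HSC+TBI minus TBI), and Fgf21 from 0.42 to 0.86, 0.80 to 1.24 and 0.22 to 0.59. Calls among the 97 list genes ranged from 16 to 23, 8 to 18 and 0 to 3 in the same order. The methods' t-test called 26, 20 and 4 at an unadjusted p and 0, 0 and 0 after adjustment, against 26, 17 and 0 (limma, with 45, 36 and 13 at an unadjusted p). With the slide as a random block (estimated correlation of -0.33) the counts were 39, 28 and 8. Over all probes this block raised the calls between HSC+TBI and TBI rats from 202 to 2256. No slide held arrays of more than 1 group, so this setting cannot separate slide from group and its counts are not used. The causes of the differing counts of the other settings were not tested. Same-numbered rats of control and TBI deviated together weakly (correlations of 0.098, 0.117 and 0.191, against -0.121 to 0.017 for other numbers), and each of these rats correlated best with its own number in the other group, which is a hint from the data. In the other comparisons same-numbered correlations were 0.001 to 0.015 (HSC+TBI and control) and -0.144 to -0.016 (HSC+TBI and TBI). Since not every pair passed 0.1 and no label ties the numbers to a shared day or litter, they were not taken as pairs, and a replicate block gave 23, 14 and 0 calls. No filter gave 21, 14 and 0 calls of 130 genes, and only probes above background on all arrays 27, 19 and 0 of 88. Of all called probes, a 75th percentile shift made the share that was higher 13.7% in place of 29.2% for HSC+TBI against TBI, and normexp made it 66.7% of only 6 calls.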
